A study of Mus musculus with 12 samples.

Results

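The comparison described here is that of ESC lines expressing Ring1B (I53S) or Ring1B (I53A) with lines expressing WT Ring1B, before any OHT was given, when the endogenous *Ring1B* gene was still intact. It asks whether the mutant proteins changed gene expression in the presence of endogenous Ring1B. All arrays whose labels give OHT-untreated cells were taken, which are 6 of the 12 arrays of the series. They comprise 3 mutant lines (I53S #1, I53S #4 and I53A #1), 2 WT lines (WT #1 and WT #3) and 1 mock line, which served as a reference. Every line came from 129/B6 hybrid ESCs of the genotype *Ring1A-/-*; *Ring1B fl/fl*; *Rosa26::CreERT2*, so that Ring1A was missing from the controls as well. The constructs were 3xFlag-tagged cDNAs in the vector pCAG-IRES-Puro, introduced by electroporation into puromycin-selected stable transfectants, and the mock line carried no Ring1B construct. The other 6 arrays hold the same lines on day 2 of OHT treatment (800 nM for 24 h) and served to ask whether a difference seen before OHT was still there, to pick genes by the mock line's OHT response, and in the normalisation and the filter on dim probe sets. Each line had 1 array before OHT, so a line was the replicate, and each line was a separate transfectant of one parental genotype. The spread between lines therefore includes whatever differed between transfectants. The cultures were kept on irradiated fibroblast feeders or on gelatin, and the labels do not say which culture was used for which array.

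Ring1B, encoded by *Rnf2*, is a RING finger E3 ubiquitin ligase and a core subunit of Polycomb repressive complex 1 (PRC1). It places mono-ubiquitin on a lysine of histone H2A (the mark H2AK119u1) at developmental regulator genes that ESCs keep silent, such as the *Hox* genes, which PRC2 marks with H3K27me3. The I53S and I53A substitutions change an isoleucine of the RING finger through which the protein meets its E2 enzyme, and they remove its ligase activity. Before OHT such a protein shares the cell with the active endogenous enzyme.

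All levels below are log2 signals after quantile normalisation of the 12 arrays, averaged over the probe sets of a gene, and all differences are mutant minus WT on that scale unless another pair is named. Levels under 3.94, the 30th percentile of all values, lie among the dimmest signals. The ESC markers were bright on every array, and all 10 were measured. *Pou5f1* read 12.87 in mock cells, 12.56 and 12.87 in WT #1 and WT #3 and 12.57, 12.66 and 12.67 in I53S #1, I53S #4 and I53A #1. *Nanog* lay between 12.36 and 12.72 on the 6 arrays. The correlation across genes between untreated arrays ran from 0.978 to 0.987, and none of the arrays duplicated a second one.

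*Rnf2* itself was not called. Its brightest probe set read 10.80 in mock cells, 10.91 and 11.20 in WT #1 and WT #3 and 10.90, 11.13 and 11.20 in I53S #1, I53S #4 and I53A #1. The mock line, with the endogenous gene alone, was thus the lowest here. A second bright probe set read 10.38 in mock cells and between 10.29 and 10.70 in the others. Averaged over its 5 probe sets, the difference between mutant and WT lines was 0.04 (SE 0.19, 95% interval -0.41 to 0.48, limma adjusted p = 0.989). Neither labels nor methods say which of these probe sets the construct or the deletion covers, so the values do not check the labels. *Ring1*, the gene of Ring1A, read 5.29 in mock cells, 6.27 and 5.73 in WT #1 and WT #3 and 5.37, 6.28 and 6.11 in the mutant lines. Its difference was -0.08 (SE 0.30, 95% interval -0.79 to 0.64).

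No gene of the 16432 tested passed an adjusted p under 0.05 in limma between the mutant and the WT lines, and the smallest adjusted p was 0.829. At an unadjusted p under 0.05 there were 862 genes, which is 5.25% of those tested, 482 of them higher in the mutant lines (2.93%) and 380 lower (2.31%). All 3 mutant lines lay above both WT lines for 10.2% of genes and below both for 10.2%, which makes 20.4% without overlap. For 93.9% of genes the difference was smaller than 0.5, and the median half-width of the 95% interval was 0.45. Many changes of that size would therefore not have been detectable with 5 lines. Larger ones missed the adjusted threshold too. *Spink1*, with the smallest p of all genes, had a difference of -1.54 and a limma adjusted p of 0.829. By more than 1, 38 genes were higher (0.231%) and 15 lower (0.0913%).

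This result depended on the scaling of the arrays in one respect. On the values as deposited, which do not share a distribution, the median of all genes was 0.28 higher in the mutant lines, and 41 genes were called by limma, all of them higher, with 1495 higher and 14 lower at an unadjusted p under 0.05. In that fit limma estimated infinite prior degrees of freedom, against 4.15 after quantile normalisation, so that all genes were given one common spread. With arrays centred on their medians no gene was called, the median of all genes was -0.15, and 305 genes were higher and 993 lower at that unadjusted level. The share of higher genes among these was 55.9% after quantile normalisation, 99.1% as deposited and 23.5% after centring, so that these arrays do not settle the balance of higher and lower genes. All 10 genes named next as higher were among the 41 called as deposited, and none of the 10 named as lower was. Differences are given below relative to the quantile-normalised arrays.

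The 20 largest differences among genes with an unadjusted p under 0.05 and no overlap between the groups are described next, although none of them passed the adjusted threshold. Of the 20 genes 14 had a mean level under 6, against 48.6% of all genes. *Spink1*, a secreted trypsin inhibitor, had the smallest p. It read 7.70 and 7.29 in WT #1 and WT #3 and 5.72, 6.17 and 5.97 in I53S #1, I53S #4 and I53A #1. The mock line, at 7.30, lay with the WT lines. The difference was -1.54 (SE 0.21, 95% interval -2.03 to -1.06, limma adjusted p = 0.829), and it was -2.06 on day 2 of OHT. *AI662270* behaved likewise at a higher level, with 9.92 and 9.46 in WT #1 and WT #3, 9.45 in mock cells and 8.66, 8.87 and 8.31 in the mutant lines. Its difference was -1.08 (SE 0.23) before OHT and -1.61 after.

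*Gng11*, a subunit of heterotrimeric G proteins, was higher in the mutant lines than in the WT lines. It read 5.24 and 5.63 in WT #1 and WT #3 and 6.999, 6.91 and 6.56 in the mutant lines. Here the mock line, at 6.91, lay with the mutant lines. The difference was 1.39 (SE 0.21, 95% interval 0.90 to 1.88, adjusted p = 0.829 in limma). *Lce1i*, a late cornified envelope gene, showed the same order, with 5.57 and 6.02 in WT #1 and WT #3, 7.15 in mock cells and 7.18, 7.12 and 6.597 in the mutant lines. *Pparg*, a nuclear receptor of fat cell differentiation, read 2.97 and 3.38 in WT #1 and WT #3, 4.44 in mock cells and 4.01, 4.47 and 4.55 in the mutant lines. Its difference was 1.17 before OHT and -0.06 on day 2.

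The reading of such genes thus depended on the mock line. Of 844 genes with an unadjusted p under 0.05 and no overlap between mutant and WT lines (5.14% of those tested), the mock line lay nearer to the mutant mean for 421 and nearer to the WT mean for 423. Over all genes it lay nearer to the mutant mean for 49.6%. The mock line was thus about as often near the one class as the other.

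The remaining large differences were mostly at low levels. *Ggcx*, the vitamin K-dependent carboxylase, read 3.48 and 3.76 in WT #1 and WT #3, 4.09 in mock cells and 5.20, 4.96 and 4.71 in the mutant lines. Its difference of 1.34 was 0.71 without the filter. *Klhl35* read 3.96 and 4.45 in WT #1 and WT #3 and between 2.89 and 3.21 in the mutant lines, a range of dim signals. *Psmb8*, a subunit of the immunoproteasome, read 6.33 and 6.38 in WT #1 and WT #3, 5.81 in mock cells and 4.96, 4.71 and 5.76 in the mutant lines. Its difference of -1.21, which was -0.45 without the filter on dim probe sets, turned to 1.36 on day 2 of OHT. *Mgp*, an inhibitor of calcification, read 7.94 and 7.77 in WT #1 and WT #3 and 7.41, 5.82 and 7.15 in the mutant lines, and I53S #4 was the lowest by far. *Ttc29* read 3.62 in WT #1 but 5.24 in WT #3, close to the 5.30 to 6.11 of the mutant lines. Without WT #1 its difference of 1.15 was 0.34.

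**Figure D1:**
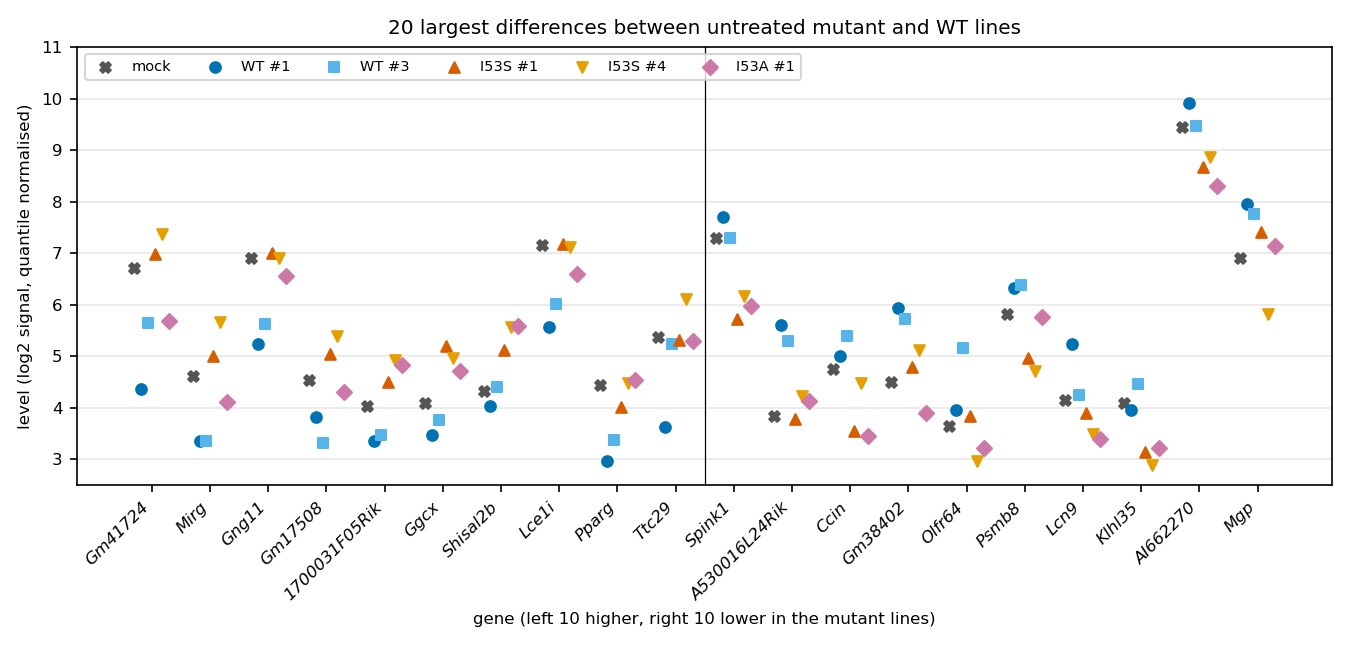
Level (log2 signal, y axis) of the 20 genes with the largest differences between untreated mutant and WT lines, 1 symbol per line and array, with no error bars because each line has 1 array. *Spink1* and *AI662270* show the mock line with the WT lines, while *Gng11*, *Lce1i* and *Pparg* show it with the mutant lines.

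The same lines after OHT gave a further view of these genes, on arrays that entered the normalisation and the filter but not the fit. The difference kept its sign on day 2 for 13 of the 20 genes, for 68.6% of the 862 genes with an unadjusted p under 0.05 and for 61.3% of all genes. The median size of the difference over those 862 genes was 0.57 before OHT and, signed by the untreated direction, 0.20 on day 2. The lines are the same on both occasions. OHT deletes the endogenous *Ring1B* gene in every line, so that on day 2 the mutant lines were left with mutant Ring1B and the WT lines with the WT construct.

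The 9 genes that the study names as H2AK119u1 targets had a median level of 4.44 before OHT, and *Tbx3*, at 6.92 to 7.69, was the brightest of them. No gene was called, and 1 of 9 had an unadjusted p under 0.05 (5.25% of all genes had). *Zic1*, a zinc finger factor of neural development, read 3.33 in mock cells, 3.11 and 3.42 in WT #1 and WT #3 and 3.43, 3.47 and 3.77 in the mutant lines, with a difference of 0.29 (SE 0.19, 95% interval -0.15 to 0.73). All of these are among the dimmest signals on the arrays. *Hoxb13*, the most 5′ gene of its cluster, was the one with the unadjusted p of 0.0131. It was lower in the mutant lines, at 4.27, 3.86 and 4.20, than in the WT lines, at 4.84 and 4.61, while the mock line read 4.87. *Hoxa9* read 5.31 and 5.75 in WT #1 and WT #3 and 5.80, 5.30 and 4.78 in the mutant lines, and the groups overlapped.

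The paired box genes, regulators of several embryonic tissues, were not higher in the mutant lines either. *Pax9* had a difference of -0.47 (SE 0.20, 95% interval -0.94 to 0.0030), which was -0.14 without the filter and -0.13 as deposited, and *Pax3* one of -0.33 (SE 0.19, 95% interval -0.79 to 0.13). *Hoxd11*, *Tbx3*, *Cdx2* and *Gata6* had differences from -0.18 to 0.08. *Cdx2*, a factor of trophectoderm and posterior body, varied most among lines, from 3.84 in I53S #4 to 5.35 in I53S #1, and the 2 WT lines, at 4.99 and 3.95, spanned most of that range. Its 95% interval ran from -1.13 to 1.12. Over the 9 genes the median difference was -0.18, against 0.0051 over all genes, and it was 0.17 on the values as deposited and -0.28 after centring. Without I53A #1 it was 0.0044, without WT #3 -0.069, without WT #1 -0.10 and without I53S #1 -0.35.

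**Figure D2:**
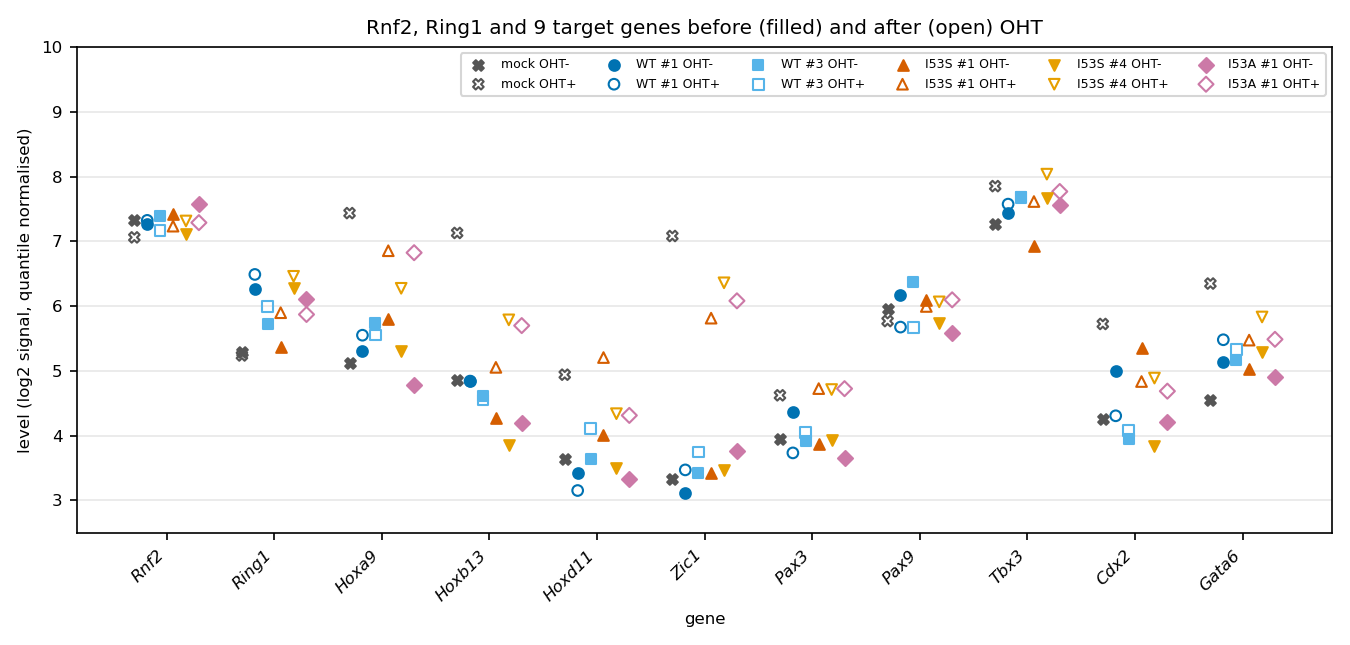
Level (log2 signal, y axis) of *Rnf2*, *Ring1* and 9 target genes in each line before OHT (filled) and on day 2 of OHT (open), 1 array per symbol. The filled symbols of *Zic1* lie between 3.11 and 3.77 in all lines, and those of *Hoxb13* are lower in the mutant lines than in the WT lines.

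Of 39 *Hox* cluster genes 30 were measured, at a median level of 4.39. At an unadjusted p under 0.05, 5 were higher in the mutant lines (16.7%, against 2.93% of all genes) and 1, *Hoxb13*, lower. These were *Hoxa5*, *Hoxb6*, *Hoxb9*, *Hoxd1* and *Hoxd10*, named after their values were seen, and none passed the adjusted threshold. The count includes *Hoxd10*, whose level lay under the filter value of 3.94 on every untreated array. The filter on dim probe sets also used the arrays after OHT, and in mock cells *Hoxd10* was 2.26 higher there. *Hoxb6* read 3.39 in mock cells, 3.48 and 3.06 in WT #1 and WT #3 and 4.06, 3.91 and 3.90 in the mutant lines, a difference of 0.68 (SE 0.18, adjusted p = 0.886 in limma). *Hoxa5* was brighter, with 5.16 and 5.26 in WT #1 and WT #3 and 5.57, 5.86 and 5.78 in the mutant lines. The mock line, at 5.61, lay within the range of the mutant lines. *Hoxd1* read 4.03 in mock cells, 3.76 and 3.76 in WT #1 and WT #3 and 4.16, 4.04 and 4.44 in the mutant lines.

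Over the measured *Hox* genes the median difference was 0.14, with 24 of 30 (80%) above 0 against 51% of all genes. The median was between 0.085 and 0.51 under every scaling tried, and between 0.13 (without I53S #1) and 0.22 (without I53S #4, and without I53A #1) with one line left out. By line, the median of the list relative to the mean of the 6 arrays was 0.17 in I53S #1, 0.04 in I53A #1 and -0.0031 in I53S #4, against -0.08 and -0.04 in WT #1 and WT #3 and -0.07 in mock cells. I53S #1 was the highest line. The mock line's median lay between those of the WT lines, but of the 5 genes named, *Hoxb6* alone had the mock line at the WT level. *Hoxb9* read 4.87 in mock cells, 4.03 and 4.70 in WT #1 and WT #3 and 5.05, 5.03 and 4.77 in the mutant lines. *Hoxd10* read 3.58 in mock cells, 2.91 and 3.11 in WT #1 and WT #3 and 3.59, 3.37 and 3.34 in the mutant lines. On day 2 the genes did not all read higher. *Hoxb6* read 3.99 in I53S #1 and 3.77 in I53S #4, under its levels before OHT. *Hoxd1* reached 6.28 in mock cells and between 6.31 and 6.47 in the mutant lines.

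The other developmental transcription factors, 84 measured of 94 listed, showed no shared direction. At an unadjusted p under 0.05, 5 were higher (5.95%, against 2.93% of all genes) and 4 lower (4.76%, against 2.31%), and the median difference was 0.02. *Isl1*, a LIM homeodomain factor of motor neurons and heart, was lower in the mutant lines, with 5.57 and 5.36 in WT #1 and WT #3 and 4.43, 4.45 and 4.93 in the mutant lines. The mock line, at 4.38, was lower still, so it was the WT lines that stood apart. *Nr2f1*, an orphan nuclear receptor, read 2.60 and 2.83 in WT #1 and WT #3 and 3.24, 3.72 and 3.34 in the mutant lines. It passed the filter on dim probe sets only through its level after OHT, which was 5.98 in mock cells and 5.49 to 6.07 in the mutant lines. *Foxc1*, among the higher genes, and *Nkx2-2*, among the lower, also read under 3.94 on every untreated array. Their levels there were 2.95 to 3.61 and 2.96 to 3.54.

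A broader set of genes was taken from the OHT response of the mock line, which carried no construct. These genes were not tested for dependence on Polycomb. On day 2 of OHT 633 genes (3.85% of those tested) read more than 1 higher in that line than before, with 1 array before and 1 after and hence no test. In the untreated lines their median difference between mutant and WT was 0.035, against 0.0051 for all genes. All 3 mutant lines lay above both WT lines for 76 of them (12%, against 10.2% of all genes) and below for 54 (8.53%, against 10.2%). At an unadjusted p under 0.05, 39 (6.16%, against 2.93% of all genes) were higher and 22 (3.48%, against 2.31%) lower. The 10th and 90th percentiles of the difference were -0.37 and 0.49, against -0.28 and 0.33 for all genes. For the 83 genes more than 2 higher in the mock line after OHT the median was 0.01. The median over the 633 genes was 0.38 on the values as deposited and -0.05 after centring, and it ran from 0.0045 without WT #1 to 0.063 without WT #3 (and 0.063 without I53S #1) with one line left out.

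No difference was called in the Polycomb machinery itself. None of the 23 measured PRC1 subunits had an unadjusted p under 0.05, and their differences ran from -0.31 to 0.20. The largest was that of *Bmi1*, a partner of Ring1B in canonical PRC1, with 7.63 and 7.62 in WT #1 and WT #3 and 7.23, 7.21 and 7.49 in the mutant lines (difference -0.31, SE 0.16). The mock line was lowest, at 7.03. *Pcgf6*, the partner in a variant PRC1, had a difference of -0.26 (SE 0.19). Of 12 PRC2 subunits 1 was higher at an unadjusted p under 0.05 (8.33%, against 2.93% of all genes). This was *Phf1*, an accessory subunit that binds methylated histone H3, with an unadjusted p of 0.00936 in limma. It read 6.19 in mock cells, 5.67 and 5.60 in WT #1 and WT #3 and 6.26, 6.08 and 6.21 in the mutant lines, so that again the WT lines stood apart. *Ezh1* had a difference of -0.18 (SE 0.19), which was 0.13 with the brightest probe set alone.

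Enzymes of the ubiquitin step gave no differences with an unadjusted p under 0.05. The 12 H2A deubiquitinases and partners had differences from -0.25 for *Usp21* to 0.22, and *Foxk2*, which recruits the Bap1 complex to DNA, had one of 0.20 (SE 0.15). Of the E2 enzymes related to the partner of Ring1B 5 of 7 were measured, and the largest difference was 0.21 (SE 0.15) for *Ube2e1*. *Ube2d1* had one of 0.14 (SE 0.18). The 95% intervals of these genes reached up to 0.63.

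Pluripotency genes were bright in both groups. None of 27 had an unadjusted p under 0.05 (5.25% of all genes had), and the median difference was -0.04 at a median level of 10.4. Of the 27 genes 8 were above 0 (29.6%, against 51% of all genes). Over the alternatives for scaling and probe sets the list median ran from -0.36 to 0.074. *Nanog* had a difference of 0.04 (95% interval -0.34 to 0.42) and *Pou5f1* one of -0.08 (95% interval -0.47 to 0.31). *Dppa3*, a germ cell and naive ESC gene, read 10.20 in mock cells, 10.11 and 9.69 in WT #1 and WT #3 and 9.75, 8.85 and 9.21 in the mutant lines, with a difference of -0.63 (SE 0.28, unadjusted p of 0.0599 in limma). *Lin28a*, an RNA-binding repressor of let-7, had one of -0.37 (SE 0.18). None of 18 primed epiblast genes had an unadjusted p under 0.05. *Lef1*, a Wnt effector, read 7.33 and 6.89 in WT #1 and WT #3 and 6.47, 5.28 and 7.03 in the mutant lines, which overlapped.

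Primitive endoderm genes, markers of the extraembryonic lineage that ESC cultures can enter, had a median difference of 0.21, with 5 of 23 (21.7%) higher at an unadjusted p under 0.05, against 2.93% of all genes, and none lower. The median was 0.048 without I53S #4, 0.14 without WT #1, 0.36 without WT #3 and 0.37 without I53A #1, and 0.45 as deposited and 0.023 after centring. The 5 genes were *Gata4*, *Foxa2*, *Col4a2*, *Hnf4a* and *Afp*, named after their values were seen, and none passed the adjusted threshold. *Afp*, a fetal plasma protein gene, had a difference of 0.61, which was 0.16 without the filter. *Gata4*, a lineage regulator, read 4.25 in mock cells, 4.64 and 4.75 in WT #1 and WT #3 and 5.18, 4.98 and 5.32 in the mutant lines. *Foxa2* read 4.09 and 4.66 in WT #1 and WT #3 and 5.09, 5.63 and 4.66 in the mutant lines. *Sox17* read 4.41 in mock cells, 4.54 and 5.63 in WT #1 and WT #3 and 5.98, 6.29 and 5.03 in the mutant lines, which overlapped. The list was high in the 2 I53S lines, at 0.27 and 0.28 relative to the mean of the arrays, while I53A #1, at -0.14, lay between the WT lines, at -0.17 and -0.05, and the mock line was the lowest, at -0.31. *Col4a2* also lies on chromosome 8, which is described further on for I53S #1, and fibroblasts make it too.

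The other lineage lists held few genes with a small p. Of 16 trophectoderm genes 1 was lower in the mutant lines at an unadjusted p under 0.05 (6.25%, against 2.31% of all genes). This was *Tpbpa*, a spongiotrophoblast gene, with an unadjusted p of 0.0106 in limma, within dim signals of 3.09 to 4.40. Its difference of -0.81 was -0.31 without the filter. *Tfap2c* had a difference of 0.33 (SE 0.18). Among 19 mesendoderm genes *Foxa2*, given above, was the only one with an unadjusted p under 0.05 (5.26% higher, against 2.93% of all genes). *Fgf8* had a difference of -0.30 (SE 0.15). None of 16 neural genes had such a p, with *Nrcam* at 0.39 (SE 0.23) and *Fabp7* at -0.40 (SE 0.26). Of 35 germline genes *Tdrd9* and *Rhox5* were lower at an unadjusted p under 0.05 (5.71%, against 2.31% of all genes), and none was higher. The list's median difference was nevertheless 0.13, with 22 of 35 genes above 0 (62.9%, against 51% of all genes). Over the alternatives for scaling and probe sets that median ran from -0.04 to 0.38. *Tdrd9* had a difference of -0.56, which was -0.12 as deposited. *Rhox5*, an X-linked homeobox gene, was bright, with 11.84 in mock cells, 11.41 and 11.41 in WT #1 and WT #3 and 11.03, 10.99 and 11.11 in the mutant lines (difference -0.37, SE 0.15).

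**Figure D3:**
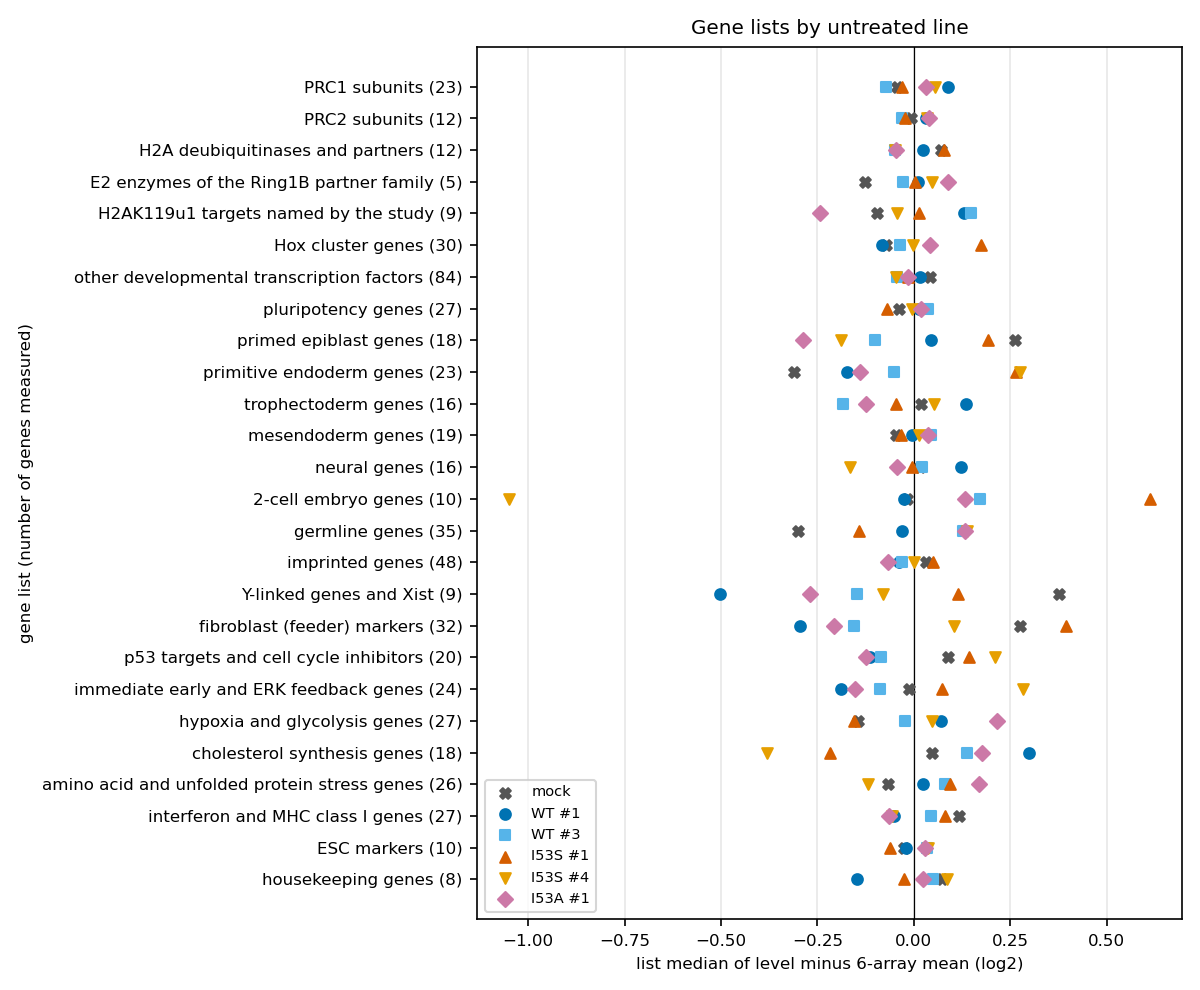
Median over each gene list of a gene's level minus its mean over the 6 untreated arrays (log2, x axis), 1 symbol per line, with the number of genes measured beside the list's name. The 2-cell embryo genes part I53S #1 (0.61) from I53S #4 (-1.05), while the pluripotency genes and ESC markers lie near 0 in every line.

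Fibroblast markers, which in these cultures can come from feeder cells, had a median difference of 0.38, with 29 of 32 above 0 and 3, *Col3a1*, *Col6a1* and *Twist2*, higher at an unadjusted p under 0.05 (9.38%). Over all genes 51% were above 0 and 2.93% higher at that p. The list median was 0.23 without I53S #1, 0.64 as deposited and 0.25 after centring. In bulk RNA fewer cells of a type and less RNA per cell cannot be told apart. *Col3a1*, a fibrillar collagen, read 6.57 in mock cells, 4.96 and 5.99 in WT #1 and WT #3 and 6.48, 6.19 and 6.35 in the mutant lines. *Col1a2* read 9.55 in mock cells, 8.12 and 8.83 in WT #1 and WT #3 and 9.59, 9.10 and 8.60 in the mutant lines. The list as a whole was lowest in WT #1, at -0.30 relative to the mean of the arrays, and was highest in I53S #1, at 0.39, and the mock line, at 0.28. I53A #1, at -0.21, lay between the WT lines, at -0.30 and -0.16. *Il6*, a cytokine that fibroblasts secrete, followed no class, with 7.17 in mock cells, 3.28 and 5.40 in WT #1 and WT #3 and 5.75, 4.75 and 4.999 in the mutant lines. The part of these markers in the other differences was not tested.

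Several metabolic and stress lists differed by line. All 18 measured genes of cholesterol synthesis read lower in the mutant lines on average, with a median difference of -0.37 and 2, *Stard4* and *Fdps*, at an unadjusted p under 0.05 (11.1%, against 2.31% of all genes). Over all genes 51% read higher. The list median was -0.12 as deposited, and the difference of *Fdps* was -0.66, and -0.41 without the filter. *Fdps*, which makes farnesyl diphosphate, read 10.54 in mock cells, 10.85 and 10.66 in WT #1 and WT #3 and 10.22, 9.60 and 10.45 in the mutant lines. By line the list stood at -0.22 in I53S #1 and -0.38 in I53S #4, but at 0.18 in I53A #1, between the WT lines at 0.30 and 0.14. The mock line stood at 0.05. The immediate early and ERK feedback genes had a median difference of 0.26, with 21 of 24 above 0 against 51% of all genes. By line the list stood at -0.15 in I53A #1, between the WT lines at -0.19 and -0.09, and at 0.07 and 0.28 in I53S #1 and I53S #4. Its median difference was 0.11 without WT #1, 0.45 as deposited and 0.033 after centring. *Atf3*, a stress-induced factor, read 5.67 in mock cells, 5.61 and 5.33 in WT #1 and WT #3 and 6.63, 6.09 and 6.29 in the mutant lines (difference 0.87, SE 0.21, adjusted p = 0.858 in limma). *Jun* read 5.79 and 5.34 in WT #1 and WT #3 and 6.74, 7.23 and 5.91 in the mutant lines.

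Among 27 hypoxia and glycolysis genes *Adm*, a secreted peptide that low oxygen induces, had one of the smaller p values of any list. It read 8.14 in mock cells, 7.27 and 7.44 in WT #1 and WT #3 and 8.10, 7.95 and 8.30 in the mutant lines, a difference of 0.77 (SE 0.17) that was 1.01 on day 2 of OHT. The list's median difference was 0.0095. *P4ha2*, a collagen prolyl hydroxylase, had one of 0.64 (SE 0.24). Of 27 interferon and MHC class I genes 3 were lower at an unadjusted p under 0.05, *Psmb8*, *Gbp2* and *Stat2* (11.1%, against 2.31% of all genes), with a list median of 0.07. None of 26 amino acid and unfolded protein stress genes and 1 of 20 p53 targets and cell cycle inhibitors (5%, against 5.25% of all genes) had an unadjusted p under 0.05. The latter was *Cdkn1c*, an imprinted inhibitor of cyclin-dependent kinases, with 8.18 in mock cells, 8.22 and 7.89 in WT #1 and WT #3 and 6.82, 7.38 and 7.54 in the mutant lines. Its difference was -0.81 before OHT and 0.80 on day 2. The p53 targets and cell cycle inhibitors had a median difference of 0.19, with 16 of 20 above 0 (80%, against 51% of all genes). By line that list stood at 0.14 and 0.21 in I53S #1 and I53S #4 and at 0.09 in mock cells. I53A #1, at -0.12, lay below the WT lines, at -0.11 and -0.08. Over the alternatives for scaling and probe sets the list median ran from -0.048 to 0.39. The 8 measured housekeeping genes had a median difference of 0.08, with 7 above 0 (87.5%). Among the latter *B2m* was at 0.52 (SE 0.27) and *Pgk1* at 0.12 (SE 0.16).

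Lines of one class differed from each other as well. The WT lines differed from each other by more than 1 for 337 genes, and pairs of mutant lines for 364 to 455. Pairs of 1 mutant and 1 WT line differed by more than 1 for 197 to 623 genes. The closest pair of all was I53A #1 and WT #3, and the most distant was I53S #4 and WT #1. The SD across genes of the difference between the WT lines was 0.38, within the 0.34 to 0.44 of the mutant and WT pairs.

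Some of this spread lay in runs of neighbouring genes. Genes with a mean level above 6 were set in order along each chromosome of the GRCm38.p6 gene table, and the median departure from the 6-array median was taken in blocks of 40 genes on each array. Of 4776 such values 54 (1.13%) were beyond 0.25, and they formed 3 runs, each on 1 line. Among blocks that shared no gene with a run none went beyond -0.14 or 0.18. The runs were found in these untreated arrays and so are given as a description, while the arrays of the same lines after OHT were not used to find them.

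In I53S #1 the run took in the whole of chromosome 8. All 469 genes in order, from *Mcoln1* to *2610044O15Rik8*, had a median departure of 0.35, and I53S #1 was the highest of the 6 lines for 362 of them. In the other lines the median over these genes was between -0.07 and 0.06. On day 2 of OHT the value was again 0.36 in I53S #1 and between -0.06 and 0.05 in the others, and this line was the highest for 348 genes. Every block of the chromosome was past 0.25 in this line. *Urb2*, a ribosome biogenesis factor, read 9.97 in I53S #1 and 8.95 to 9.37 in the other lines. *Hmox1*, the inducible haem oxygenase, read 9.60 against 8.24 to 8.85, and *Col4a1*, a basement membrane collagen, 9.77 against 8.34 to 9.30. The difference between mutant and WT lines, 1 of the former being I53S #1, had a median of 0.12 over the chromosome, with 366 of 469 genes above 0, 11 higher and none lower at an unadjusted p under 0.05. Over all genes 51% were above 0, and 2.93% were higher and 2.31% lower at that p.

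In WT #1 the first 80 of 736 genes in order on chromosome 11, from *Eif4enif1* to *B3gnt2*, had a median departure of -0.46, and this line was the lowest for 61 of them. The other lines had medians between 0.0021 and 0.03. On day 2 of OHT the median was -0.44 in WT #1. *Eif4enif1*, an adaptor that carries eIF4E into the nucleus, read 8.35 in WT #1 and 9.32 to 9.58 elsewhere. *Tmed4*, a cargo receptor of the early secretory pathway, read 8.11 against 8.95 to 9.18, and *Grb10*, an imprinted inhibitor of insulin receptor signalling, 6.16 against 7.20 to 7.76. WT #1 is 1 of the 2 WT lines, and the mutant lines read higher by a median of 0.25 over this run, with 67 of 80 genes above 0 and 6 higher at an unadjusted p under 0.05. The shares over all genes were 51% above 0 and 2.93% higher at that p.

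In I53S #4 the run held 80 of the 282 genes in order on chromosome 14, from *Cab39l* to *Klf5*, with a median departure of 0.27 before OHT and 0.30 after, and this line was the highest for 48 of them. *Rb1*, the retinoblastoma tumour suppressor, read 8.99 in I53S #4 and 7.29 to 7.67 in the other lines. Its neighbour *Lpar6*, a lysophosphatidic acid receptor, read 8.48 against 6.58 to 7.06. *Clu*, a secreted chaperone, read 9.61 against 7.68 to 8.68. The other lines had medians between -0.10 and 0.02. In the blocks that reach past the run to the end of the chromosome, I53S #1 went down to -0.24 and WT #3 up to 0.20. No gene of this run had an unadjusted p under 0.05 in the comparison of mutant and WT lines.

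**Figure D4:**
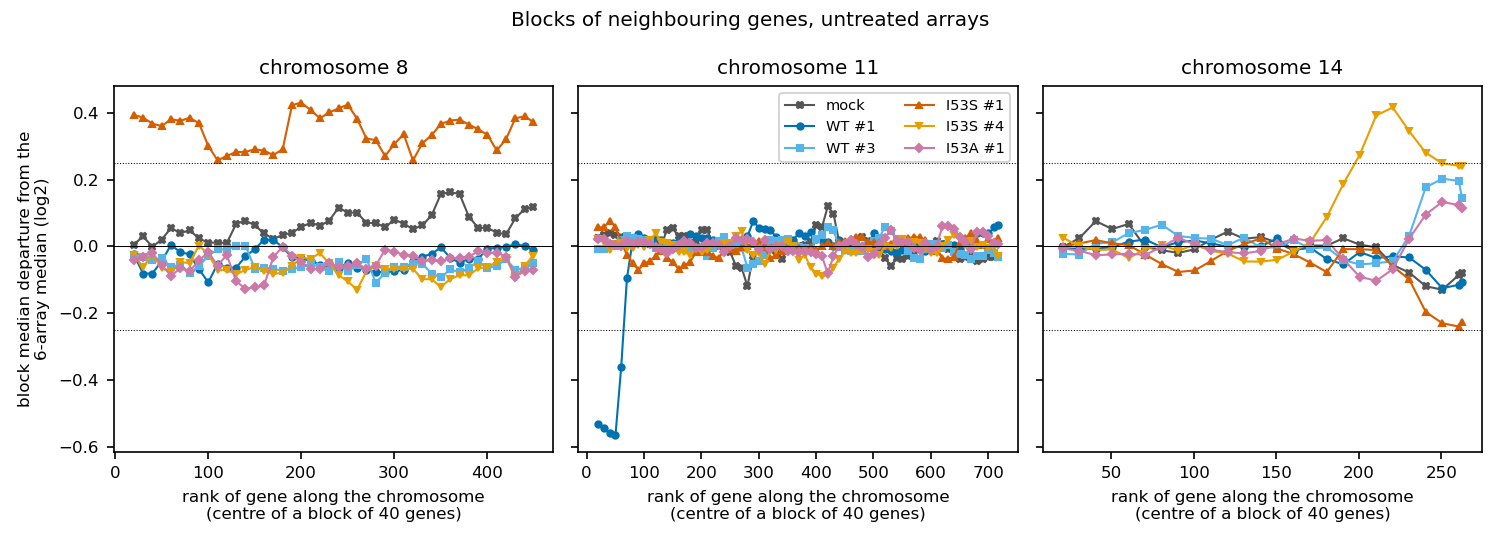
Median departure from the 6-array median (log2, y axis) in blocks of 40 neighbouring genes, by rank along chromosomes 8, 11 and 14, 1 line per untreated array, with dotted lines at 0.25 and -0.25. I53S #1 stays above 0.25 along all of chromosome 8, WT #1 falls below -0.25 in the first 80 genes of chromosome 11, and I53S #4 rises above 0.25 late on chromosome 14.

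Together the runs held 629 of the tested genes, of which 17 (2.70%) had an unadjusted p under 0.05 against 5.25% of all genes. These shares are not like for like, because the runs hold only genes with a mean level above 6. Of the 844 genes with such a p and no overlap, 74.4% had a mean level under 6, against 48.6% of all genes. That limit also applies to the shares at this p set beside the single runs. Without these genes limma still called none of 15803, and 848 had an unadjusted p under 0.05. DNA was not measured here, and whether the runs reflect the number of gene copies was not tested.

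Other line differences were shared by lines of different classes. *Eif2s3y*, a Y-linked translation initiation factor, read 7.09 in mock cells, 6.34 in I53S #1 and 7.12 in I53S #4, but 4.09 in WT #1, 3.81 in WT #3 and 3.46 in I53A #1. The same 3 lines were high on day 2 of OHT, at 6.38 to 6.49, and the other 3 low, at 3.34 to 4.08. *Uty*, a Y-linked histone demethylase family gene, followed at a lower level, with 5.45, 4.23 and 4.59 in mock cells, I53S #1 and I53S #4 and 3.03, 3.24 and 3.16 in WT #1, WT #3 and I53A #1. The differences between mutant and WT lines, 1.69 (SE 0.94) for *Eif2s3y* and 0.86 (SE 0.39) for *Uty*, came with I53A #1 at the level of the WT lines, and were 0.79 and 0.44 without the filter on dim probe sets. *Eif2s3y* was called as deposited (limma adjusted p = 9.24e-05), although I53A #1 lay below both WT lines. *Xist*, the RNA that coats the inactive X chromosome, lay between 4.94 and 5.82 in all lines.

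The maternally expressed RNAs of the *Dlk1*-*Meg3* imprinted region parted the lines in the same way. *Meg3* read 6.07 in mock cells, 5.67 in I53S #1 and 6.20 in I53S #4, against 5.13 in WT #1, 5.26 in WT #3 and 4.997 in I53A #1. *Rian*, a noncoding RNA of the same region, read 6.31, 5.67 and 6.13 in the first 3 lines and 4.71, 5.04 and 4.60 in the others. *Mirg*, which hosts microRNAs of the region, had one of the largest differences between mutant and WT lines, 1.58 (SE 0.40, 95% interval 0.62 to 2.53, adjusted p = 0.885 in limma). It read 3.35 and 3.35 in WT #1 and WT #3 and 5.01, 5.66 and 4.11 in the mutant lines, with 4.61 in mock cells. I53A #1 was thus again the mutant line nearest to the WT lines. Over all 48 measured imprinted genes the median difference was -0.0016, with 2 higher, *Mirg* and *Zim1*, and 2 lower, *Cdkn1c* and *Peg12*, at an unadjusted p under 0.05. That is 4.17% in each direction, against 2.93% of all genes higher and 2.31% lower. The count of lower genes includes *Peg12*, which read under 3.94 on every untreated array, at 2.80 to 3.69.

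Genes of the 2-cell embryo, which a small share of ESCs express at a time, set the I53S lines against each other. No gene of the 10 measured had an unadjusted p under 0.05, and the 2 I53S lines lay at opposite ends. The list stood at 0.61 in I53S #1 and -1.05 in I53S #4 relative to the mean of the arrays, with the other lines between -0.03 and 0.17. *Tcstv3* read 6.67 in I53S #1 and 4.43 in I53S #4 against 5.61 to 6.29 elsewhere. *Tcstv1* read 8.60 in I53S #1 and 6.45 in I53S #4 against 7.58 to 8.30. *Zfp352*, a retrotransposed zinc finger gene of the early embryo, read 4.52 in I53S #4 and 5.62 to 6.56 elsewhere. On day 2 of OHT I53S #4 was still the lowest line, with 7.17 for *Tcstv1* against 8.02 to 10.07. The preimplantation genes *Ubtfl1* and *Pramel6* were among the 3 genes that set I53S #4 furthest apart, at 3.41 against 5.04 to 6.46 and at 3.55 against 5.03 to 6.43.

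**Figure D5:**
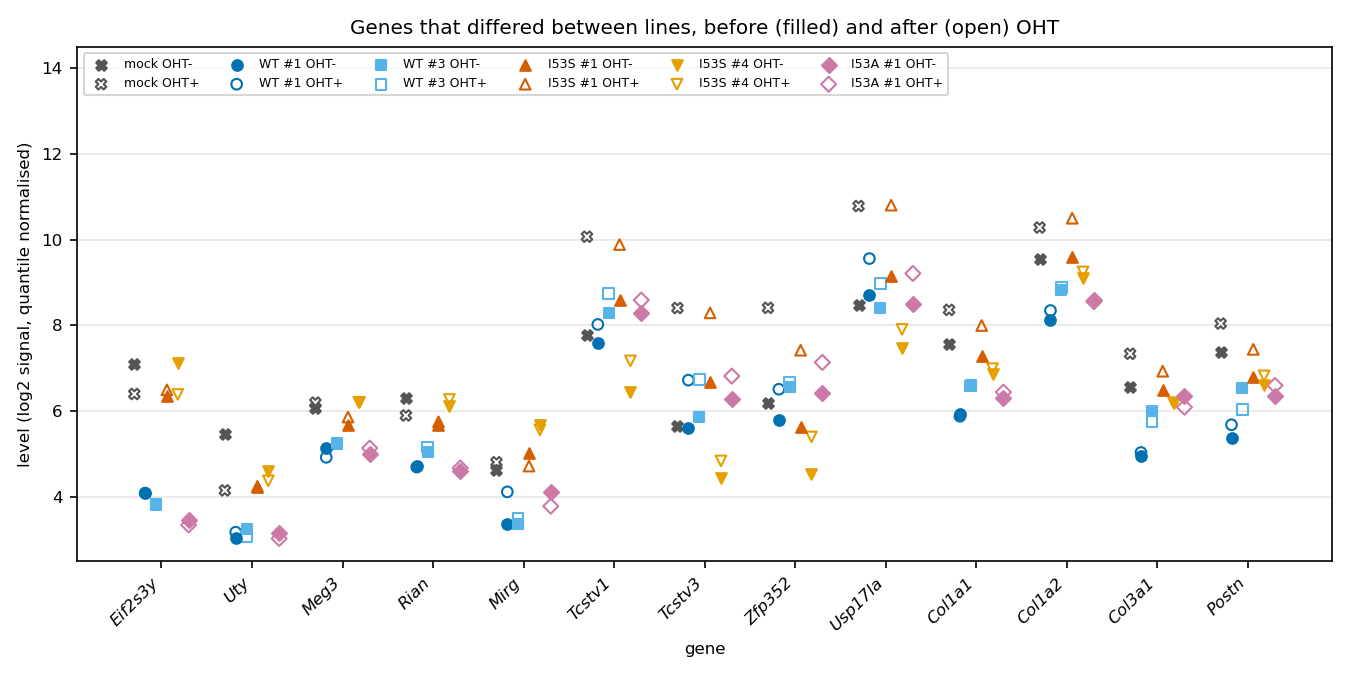
Level (log2 signal, y axis) of Y-linked, *Dlk1*-*Meg3* region, 2-cell embryo and fibroblast genes in each line before OHT (filled) and on day 2 of OHT (open), 1 array per symbol. *Eif2s3y* is high in the mock line, I53S #1 and I53S #4 and low in the other 3 lines on both occasions, and the 2-cell genes are lowest in I53S #4.

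Counted line by line, I53S #4 had the most genes that stood more than 1 away from all other untreated arrays, 22 above and 18 below, followed by WT #1 with 4 above and 18 below and the mock line with 7 above and 8 below. I53S #1 had 4 above and 1 below, I53A #1 had 3 above and 3 below, and WT #3 had 2 above and none below. In I53S #4 *Fbp1*, an enzyme of gluconeogenesis, read 6.36 against 3.69 to 4.497. In I53A #1 *Car4*, a membrane carbonic anhydrase, read 5.32 against 6.47 to 7.86. In WT #1 *Crisp4* read 4.95 against 2.66 to 3.24, and its level on day 2 was 0.26 from the mean of the other lines. In the mock line *Rhox9*, an X-linked homeobox gene, read 7.89 against 5.62 to 6.19.

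The comparisons with the mock line, which share that single array, called no gene either after quantile normalisation. Between mutant and mock the smallest adjusted p in limma was 0.696, and 1023 genes (6.23%) had an unadjusted p under 0.05, 3.71% higher in the mutant lines and 2.52% lower. Between WT and mock the smallest adjusted p was 0.903, and 786 genes (4.78%) had an unadjusted p under 0.05, 2.57% higher in the WT lines and 2.22% lower. The spread of the mock class was taken from the other lines. *Rhox9* was among the 5 smallest p values in both, with a difference of -2.01 (SE 0.24, limma adjusted p = 0.696) for mutant minus mock. *Serpinb6e*, a serine protease inhibitor, read 6.31 in mock cells, 7.59 and 7.61 in WT #1 and WT #3 and 7.54, 7.82 and 7.89 in the mutant lines, and so set the mock line apart from every line with a construct. *Actg2*, a smooth muscle actin, read 6.76 in mock cells, 4.999 and 4.88 in WT #1 and WT #3 and 6.44, 5.72 and 5.94 in the mutant lines. *Tuft1* read apart in each class, with 5.76 in mock cells, 6.53 and 6.53 in WT #1 and WT #3 and 7.10, 7.24 and 7.06 in the mutant lines.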

How the data were processed

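RNA of 6 ESC lines was hybridised to Affymetrix arrays, 1 per line before and 1 after OHT. The series table that the authors deposited gives a log2 signal for each probe set. The submitters' processing notes name RMA in Affymetrix Expression Console without versions, while the supporting methods describe MAS5 signals and quantile normalisation. The deposited log2 values do not share a distribution, with medians from 4.66 to 5.67.

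From 45101 probe sets 64 controls were removed. Among the 45037 others, 34945 map to 1 gene symbol in GEO's platform annotation, 932 to several and 9160 to none, and only the first were used. Symbols were updated through the RefSeq gene table (GRCm38.p6), in which 18032 were found and 162 not. The 12 arrays were quantile-normalised, probe sets whose highest value exceeded 3.94 were kept (37446), and probe sets of a gene were averaged, giving 16432 genes, of which 16400 have a chromosome. The 6 untreated arrays were then fitted in R 4.3.3 with limma 3.58.1 (lmFit and eBayes, two-sided, classes mutant, WT and mock, 3 residual and 4.15 prior degrees of freedom), with Benjamini-Hochberg adjustment over all genes and a call at 0.05. P-values measure the spread between these lines, whose small number limits the precision. statmod 1.5.0 was used for the fit of all arrays with the line as a block. The scripts were tested on simulated data.

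The comparison, gene lists and tests were chosen with earlier results of these data known, and the lists support nothing by themselves. Genes named in the text and figures were drawn from several choices, and not every gene of each is given. First came the 10 largest positive and 10 largest negative differences with an unadjusted p under 0.05 and no overlap (none was called). Next were 2 genes per list with the smallest p, *Rnf2*, *Ring1* and 9 targets. Then followed 3 genes per line with the largest gap to the other untreated arrays and 5 genes per comparison with mock. Further members of lists and genes of the 3 chromosome runs were chosen after their values were seen.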

Additional observations from a re-analysis of the deposited data

How the results depend on the processing

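Mutant minus WT called 0 genes under every alternative tried but 1. Some of these alternatives could not change that count. Leaving out the mock array repeated the same fit of mutant and WT lines, with 862 genes at an unadjusted p under 0.05. A further condition of a log2 difference over 0.5 cannot add calls. The I53S lines alone gave the same fit as leaving out I53A #1, with 1089 such genes in both. On the values as deposited 41 genes were called, 7 for mutant minus mock and 6 for WT minus mock, with 1509 and, for WT minus mock, 325 genes at an unadjusted p under 0.05. The median of the genes that rose in the mock line was then 0.38, and 72.2% of all genes kept their sign on day 2 of OHT. With arrays centred on their medians an unadjusted p under 0.05 was reached by 1298 genes, and those 2 values were -0.054 and 69.8%. With a filter on the mean, which tested 11677 genes, 503, 625 and 463 genes had such a p in mutant minus WT, mutant minus mock and WT minus mock, and the SD between the WT lines was 0.34. Leaving out each line in turn gave 628 to 1089 genes at an unadjusted p under 0.05 for mutant minus WT and medians of 0.0045 to 0.063 for the genes that rose in the mock line. With the line as a replicate block over all 12 arrays (correlation within a line of 0.41) limma called 0 genes in each comparison, with 906, 1113 and 819 genes at an unadjusted p under 0.05, and *Spink1* had an adjusted p of 0.178, where its other alternatives ran from 0.074 to 1. No paired analysis was possible because mutant and WT lines share only the number 1, which names separate transfectants. Of 76 named genes 64 kept their direction under all alternatives. As deposited, *Ezh1* was 0.30, *Fgf8* 0.031, *Ring1* 0.27, *Hoxa9* 0.14, *Tbx3* 0.17, *Cdx2* 0.38 and *Gata6* 0.28. After centring, *Pgk1* was -0.26, *Rnf2* -0.092 and *Hoxd11* -0.067. With the brightest probe set *Ezh1* was 0.13, *Sall4* 0.027, *Pgk1* -0.010 and *Cdx2* 0.19, and with the filter on the mean *Rnf2* was -0.034. With the I53S lines alone *Rnf2* was -0.069, *Hoxa9* 0.024, *Cdx2* 0.12 and *Gata6* 0.0044. With 1 line left out *Rnf2* ran from -0.069 to 0.17, *Ring1* from -0.35 to 0.20, *Hoxa9* from -0.49 to 0.024, *Hoxd11* from -0.12 to 0.22, *Tbx3* from -0.32 to 0.053, *Cdx2* from -0.53 to 0.52, *Gata6* from -0.18 to 0.0044 and *Ube2d1* from -0.083 to 0.36. The causes were not tested. Over the 6 alternatives for scaling and probe sets, the chromosome runs had medians of 0.28 to 0.36 (I53S #1), -0.54 to -0.44 (WT #1) and 0.23 to 0.36 (I53S #4). The removal of the genes in these runs was chosen after seeing the data. The number of lines, 2 WT and 3 mutant, limits the precision, and the mock class with its 1 array was assumed to vary like the other lines.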
